A study of Mus musculus with 6 samples.

Results

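Imprinted genes are expressed mainly from the copy inherited from a given parent. Of 44 genes known to be imprinted in the mouse, chosen by symbol, 42 had a row among the 19489 genes measured by RNA-seq in Con ESCs and *Dppa3* OE ESCs. The non-coding RNAs *H19* and *Meg3* had no row and were not analysed here. By the parental copy that textbooks give as active, 18 of the 42 are maternally expressed, 23 are paternally expressed, and *Gnas* is expressed from either copy depending on its promoter. Reads were not split by parental copy, so each value is the sum over both.

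Imprints are DNA methylation marks set in the egg or the sperm at imprinting control regions. They persist after fertilization, when most other methylation is erased, because KRAB zinc finger proteins such as ZFP57 bind the methylated copy and recruit TRIM28, and because UHRF1 brings DNMT1 to it at each replication. DPPA3 (also called STELLA or PGC7), the maternal factor overexpressed here, is known to shield some imprints in the zygote and to displace UHRF1 from chromatin. Paternally expressed genes include many that promote growth of the fetus and placenta, such as *Igf2*, and maternally expressed genes include several that restrain it, such as *Igf2r*, *Cdkn1c*, *Phlda2* and *Grb10*.

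The 6 libraries came from mouse ESCs grown in serum and LIF. The genotype label was wild type for the 3 Con libraries and Dppa3 over expression for the 3 OE libraries. Con-1 and OE-1 are called pair 1 here, Con-2 and OE-2 pair 2, and the third library of each group, labelled D7, the D7 pair. No source explains the D7 label, and it goes with the third replicate number throughout, so these cannot be told apart. In the methods, *Dppa3* was driven by a CAG promoter in puromycin-selected J1 or D3 ESCs, with the empty vector as control, either in stable lines from picked colonies or transiently, and which of these gave the RNA is not stated. The strain label differs for every library, running in sample order from 129S2/SvPas in Con-1 to 129S7/SvPas in OE-D7, so strain as labelled and genotype cannot be told apart. The methods say in general terms that results rest on repeated independent experiments, but not whether these 6 libraries were separate cultures, so p-values here reflect sample-to-sample spread alone, which may be technical.

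Estimated counts summed to between 17408954 and 18176939 per library. *Dppa3* was at 6.09 and 3.89 FPKM (fragments scaled by transcript length and depth) in Con-1 and Con-2, at 278.79 and 278.82 FPKM in OE-1 and OE-2, and at 26.22 and 130.96 FPKM in Con-D7 and OE-D7. The OE library was above its Con library in each pair, and the gap was smallest in the D7 pair. Of the 10 ESC markers, *Dppa5a* was at 1238.34 to 1701.12 FPKM in the first 4 libraries and at 2083.11 and 2267.56 FPKM in Con-D7 and OE-D7. The other 9 summed to 2156.97 to 2568.32 FPKM and to 1556.20 and 1411.98 FPKM.

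ZFP57 recognises the hexamer TGCCGC when its CpG is methylated. To show where it lies at these genes, the promoter windows of the RefSeq table for build GRCm38.p6 (250 bases before to 50 after each start) were searched on both strands. It stood in 11.6% of all 32851 windows and in 12 of 50 windows of the 32 members that had an entry (24%). Windows can overlap, so a match can count more than once. Those of *Mest* at chr6:30737800-30738099 and chr6:30737803-30738102 hold the same matches. Of 9 members chosen from textbooks for a start in a germline methylated region, 8 had an entry and 6 held the hexamer in any of their windows. The 9 may not be all such members. This count is per gene and has no share over all genes beside it, unlike the count of windows. The 30 bases around a match are shown for these 6 genes and for *Igf2*, the member with the largest change in expression. They run 5′ to 3′ on the strand that carries the capitals, which mark the hexamer. Whether a match lies inside the methylated region itself was not checked. For *Grb10* it lay in the window chr11:12037371-12037670 and not in that at chr11:12027922-12028221. *Mest* and *Nap1l5* each held a second match, not shown.
Mest (chr6:30737971-30738000, minus strand): acccgcccatccTGCCGCagcgcccctcct
Snrpn (chr7:60005184-60005213, plus strand): tgcgcacattttTGCCGCaatgcaggggtc
Nnat (chr2:157560093-157560122, minus strand): tgctgggcgcaaTGCCGCagccccggtggc
Nap1l5 (chr6:58907133-58907162, minus strand): cagccattcactTGCCGCgagccgcgaagc
Plagl1 (chr10:13090730-13090759, minus strand): tgccgtgggcttTGCCGCgcaacacgccag
Grb10 (chr11:12037379-12037408, plus strand): cccttcccttccTGCCGCctccccgcaccc
Igf2 (chr7:142661224-142661253, plus strand): caaaatctgtgcTGCCGCtgggacaccgta
The hexamer was not among the letters of the *Peg3* or *Zrsr1* window, and *Peg10* had no entry. Methylation was not measured in these libraries, so a match marks letters only.

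The levels of the 42 genes spanned a wide range. Averaged over the 6 libraries, 9 members were above 50 FPKM, 12 lay between 10 and 50, 13 between 1 and 10, and 8 below 1 FPKM. The highest mean was 244 FPKM for *Peg10*, a retrotransposon-derived gene needed for the placenta. *Gnas*, which encodes the stimulatory G protein alpha subunit, averaged 118 FPKM, *Slc38a4*, an amino acid transporter, 116 FPKM, *Snrpn*, a splicing protein gene, 114 FPKM, *Cd81*, a tetraspanin, 110 FPKM, and *Mest*, a hydrolase-like gene, 108 FPKM. The median of the members' means was 8.26 FPKM for maternally and 9.61 FPKM for paternally expressed genes. The 6 members with a mean under 0.5 FPKM (*Magel2*, *Rtl1*, *Asb4*, *Kcnq1*, *Dcn* and *Kcnk9*) reached at most 1.24 FPKM in any library and were not tested, which left 14 maternally expressed genes, 21 paternally expressed genes and *Gnas*, 36 in all.

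The widest differences among the members separated the D7 pair from the first 4 libraries. In a fit with a genotype term, 7 of the 36 tested members rose in the D7 pair and 0 fell (edgeR quasi-likelihood test, Benjamini-Hochberg adjusted p under 0.05, 15 members at an unadjusted p under 0.05). Of all 13809 genes tested, 6.77% were called higher and 3.06% lower. This fit takes Con-D7 and OE-D7 as separate replicates, although they form 1 pair against 2 others, and since D7 is itself a pair it cannot be fitted with the pair as a block. If libraries of a pair are not independent, its p-values are too small. The 7 were *Igf2*, *Dlk1*, *Dio3*, *Peg3*, *Usp29*, *Peg10* and *Slc38a4*. All 7 are in the paternally expressed class, 7 of 21 against 0 of 14 maternally expressed genes (3 at an unadjusted p under 0.05). This difference between the classes was not tested. The classes follow textbooks, and whether each gene was expressed from a single parental copy in these ESCs was not measured. The median log2 fold change was 0.60 over paternally and -0.09 over maternally expressed genes, and -0.03 over all genes. In bulk RNA, fewer cells of a type and less RNA per cell cannot be told apart, which holds for every difference given here.

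**Figure D1:**
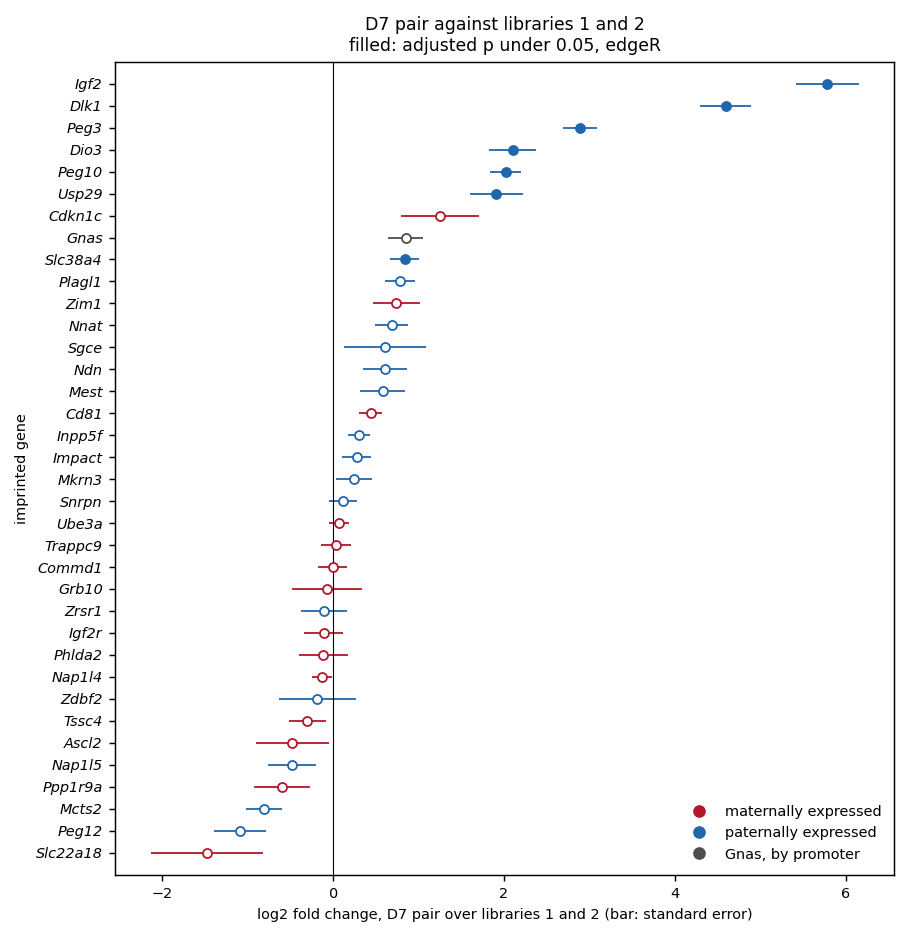
Log2 fold change of each of the 36 tested imprinted genes in the D7 pair over libraries 1 and 2 of both groups, with the standard error as a bar (edgeR, genotype as a term). Blue marks paternally, red maternally expressed genes and grey *Gnas*, and filled points passed an adjusted p of 0.05. The 7 filled points are all blue and run from 0.84 for *Slc38a4* to 5.79 for *Igf2*, while the red points lie between -1.48 for *Slc22a18* and 1.25 for *Cdkn1c*.

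*Igf2* (chr7:142650768-142666816), the insulin-like growth factor that promotes fetal growth, was at 1.49 and 1.36 FPKM in Con-1 and Con-2, 1.13 and 0.97 FPKM in OE-1 and OE-2, and 42.79 and 91.43 FPKM in Con-D7 and OE-D7. It was thus low in the first 4 libraries and high in both D7 libraries, 54.2-fold by their mean FPKM. Its log2 fold change was 5.79 (SE 0.37, adjusted p = 0.00358, edgeR).

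The Dlk1-Dio3 cluster on chromosome 12 likewise had both D7 libraries above the others at its tested paternally expressed genes. *Dlk1* (chr12:109452485-109463336), a membrane-bound Notch-like ligand that holds back differentiation of precursor cells, was at 1.67 and 0.76 FPKM in Con-1 and Con-2, 2.75 and 2.85 FPKM in OE-1 and OE-2, and 25.03 and 79.43 FPKM in Con-D7 and OE-D7. Its D7 libraries were 26.0-fold above the others, a log2 fold change of 4.60 (SE 0.30, adjusted p = 0.00361, edgeR). *Dio3* (chr12:110279230-110281097), which inactivates thyroid hormone, was at 0.38 and 0.54 FPKM in Con-1 and Con-2, 0.60 and 0.64 FPKM in OE-1 and OE-2, and 1.78 and 2.99 FPKM in Con-D7 and OE-D7. The groups did not overlap, but all values were low, and the log2 fold change was 2.10 (SE 0.28, adjusted p = 0.0144, edgeR). *Rtl1*, the other paternally expressed gene of the cluster, was too low to test. It was at 0.16 and 0.34 FPKM in Con-D7 and OE-D7, inside the range of 0.13 to 0.57 FPKM in the other libraries.

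In the Peg3 domain on chromosome 7, where *Peg3* and *Usp29* start 96 bases apart and run in opposite directions, both rose in the D7 pair. *Peg3* (chr7:6703892-6730462), a zinc finger gene known for its part in maternal behaviour and growth, was at 10.43 and 12.32 FPKM in Con-1 and Con-2, 9.31 and 10.49 FPKM in OE-1 and OE-2, and 62.21 and 97.86 FPKM in Con-D7 and OE-D7. The log2 fold change was 2.89 (SE 0.20, adjusted p = 0.00385, edgeR). *Usp29* (chr7:6730559-6967220), of the ubiquitin protease family, was at 0.46 and 0.83 FPKM in Con-1 and Con-2, 0.49 and 0.94 FPKM in OE-1 and OE-2, and 2.38 and 2.70 FPKM in Con-D7 and OE-D7. It rose by a log2 fold change of 1.91 (SE 0.31, adjusted p = 0.0233, edgeR). The maternally expressed neighbour *Zim1*, a zinc finger gene, lay between 0.53 and 0.83 FPKM in the other 4 libraries and at 0.88 and 1.23 FPKM in the D7 pair, and did not pass the test (adjusted p = 0.144, edgeR).

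*Peg10* (chr6:4747306-4760517) was at 104.28 and 121.67 FPKM in Con-1 and Con-2, 103.97 and 146.20 FPKM in OE-1 and OE-2, and 366.67 and 623.30 FPKM in Con-D7 and OE-D7. It rose by a log2 fold change of 2.02 (SE 0.18, adjusted p = 0.00604, edgeR). *Sgce*, a sarcoglycan gene that starts 101 bases from *Peg10* on the opposite strand and is likewise paternally expressed, was at 9.68 and 13.22 FPKM in the D7 pair, against 3.48, 10.76, 4.92 and 10.75 FPKM in Con-1, Con-2, OE-1 and OE-2. Its groups overlapped, since Con-D7 lay below the libraries of pair 2. *Slc38a4* (chr15:96994816-97055956) was at 85.66 and 103.57 FPKM in Con-1 and Con-2, 83.71 and 95.01 FPKM in OE-1 and OE-2, and 132.47 and 194.91 FPKM in Con-D7 and OE-D7. Its rise was the smallest of the 7, with a log2 fold change of 0.84 (SE 0.17, adjusted p = 0.0395, edgeR).

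The remaining clusters had no call in the D7 pair. In the Kcnq1ot1 domain, where the tested members are maternally expressed, 0 of 7 passed and their median log2 fold change was -0.14. *Cdkn1c*, a cell cycle inhibitor, was at 7.15 and 15.06 FPKM in Con-1 and Con-2, 6.76 and 13.37 FPKM in OE-1 and OE-2, and 15.61 and 37.13 FPKM in Con-D7 and OE-D7. Both D7 values were above the others, by little in Con-D7, and the log2 fold change of 1.25 (SE 0.46) did not pass (adjusted p = 0.137, edgeR). In the Snrpn-Ube3a cluster 0 of 5 passed, with a median of 0.12. *Snrpn* was at 129.06 and 104.04 FPKM in Con-1 and Con-2, 114.61 and 95.68 FPKM in OE-1 and OE-2, and 128.50 and 114.39 FPKM in Con-D7 and OE-D7, with the groups overlapping. *Magel2*, of the same cluster, was too low to test at 0.07 to 0.33 FPKM in the other libraries and 1.24 and 0.87 FPKM in Con-D7 and OE-D7. *Igf2r*, the receptor that clears IGF2 and which overlaps the antisense RNA *Airn* in the annotation, was at 15.25 and 24.91 FPKM in Con-1 and Con-2, 18.57 and 27.34 FPKM in OE-1 and OE-2, and 21.02 and 18.70 FPKM in Con-D7 and OE-D7. The D7 values of this gene lay inside the range of the others.

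Counted without a test, both D7 libraries were above the other 4 for 14 of 36 members and below them for 6, against 23.6% of all genes in either direction. The 14 comprised 10 of 21 paternally expressed genes, 3 of 14 maternally expressed genes (*Zim1*, *Cdkn1c* and *Cd81*) and *Gnas*. DESeq2 called 11 members higher and 1 lower in the D7 pair (background 10.9% and 7.21%), adding *Cdkn1c*, *Gnas*, *Nnat* and *Plagl1* among those higher and *Mcts2*, at 14.12 and 14.36 FPKM in Con-D7 and OE-D7 against 21.01 to 29.37 FPKM elsewhere, as the gene that was lower. Without OE-D7, 0 members passed in edgeR (8 at an unadjusted p under 0.05), as did 0 of all 13657 genes. Without Con-D7 *Igf2* and *Peg3* passed, 2 of 28 genes called among 13743, and the log2 fold changes of these members were 4.98 and 2.45 in the first case and 6.53 and 3.31 in the second.

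**Figure D2:**
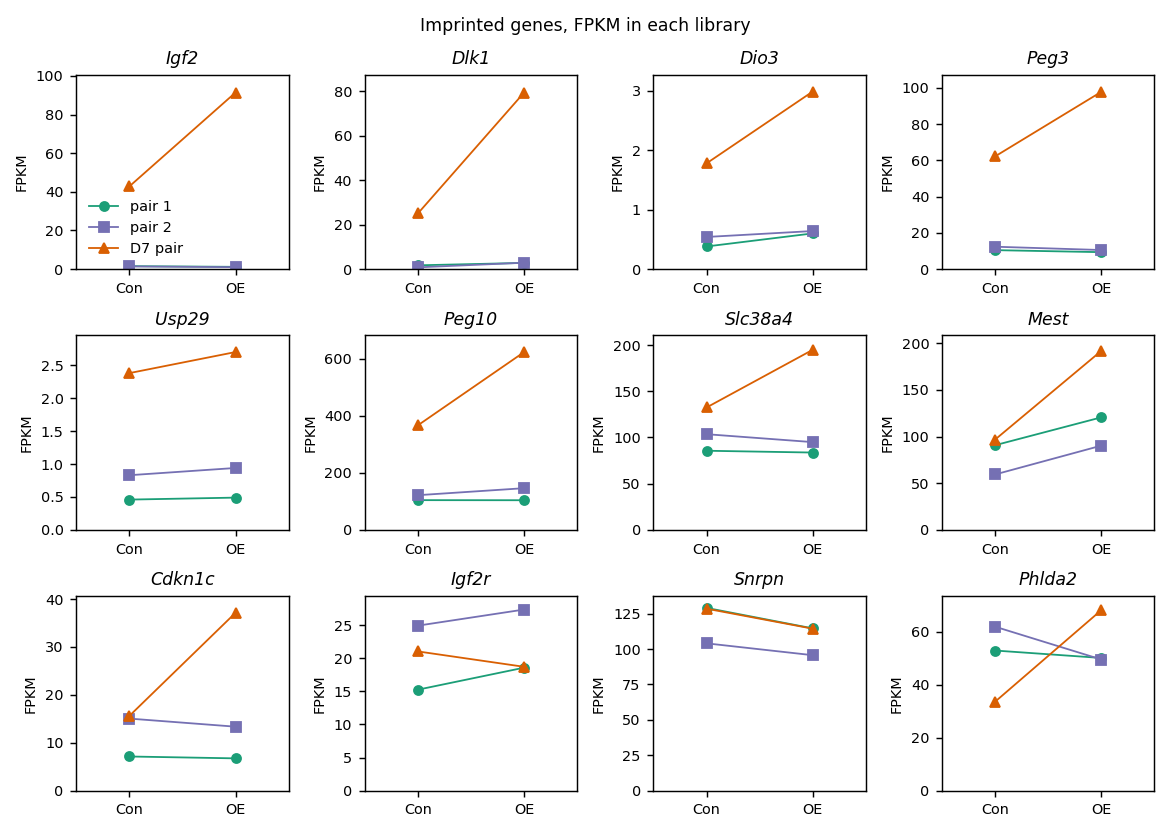
FPKM of 12 imprinted genes in each library, with Con on the left and OE on the right of each panel, a line joining the libraries of a pair, and an axis from 0 that differs between panels. *Igf2*, *Dlk1*, *Dio3*, *Peg3*, *Usp29*, *Peg10* and *Slc38a4* show the D7 pair above pairs 1 and 2, while the pairs cross or overlap for *Igf2r*, *Snrpn* and *Phlda2*.

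Markers of other cell types moved with the D7 pair. Of 12 trophoblast and placenta markers, 11 were tested and 7 rose, where 6.77% of all genes were called higher. Among them were the keratin genes *Krt8*, *Krt7* and *Krt18*. *Krt8* and *Krt18* were at 250.06 and 318.42 FPKM in Con-D7 and at 421.47 and 579.62 FPKM in OE-D7. Of the 11 tested, 10 had a log2 fold change above 0, with *Tfap2a* level at 0.00, and *Ascl2* was lower at -0.48. The list summed to between 43.74 and 77.36 FPKM in the first 4 libraries and to 723.31 and 1285.65 FPKM in Con-D7 and OE-D7. Of 15 fibroblast or feeder markers, 12 were tested and 8 rose, with summed levels of 161.4 to 186.89 FPKM against 364.23 and 616.5 FPKM. The rise included *Col1a1*, which encodes a collagen chain, and *Acta2*, which encodes smooth muscle actin. *Fap* was at 0 in the first 4 libraries and in Con-D7, and *Lum* did not exceed 0.11 FPKM. Of the 12 tested, 11 had a log2 fold change above 0. *Thy1* was lower in the D7 pair without a call, at 22.95 and 20.97 FPKM against 30.84 to 52.99 FPKM in the first 4 libraries. Of 11 primitive and visceral endoderm markers, 6 were tested and 3 rose, with sums of 4.85 to 7.85 FPKM against 13.63 and 22.67 FPKM. Of 10 ESC markers, 5 fell (*Esrrb*, *Klf4*, *Tfcp2l1*, *Utf1* and *Pou5f1*) and 0 rose, where 3.06% of all genes were called lower. Neural markers summed to 50.79 to 104.38 FPKM in the first 4 libraries and to 32.07 and 34.72 FPKM in the D7 pair, with 0 of 3 tested called, and mesoderm and muscle markers to 6.69 to 12.31 FPKM and to 9.61 and 8.0 FPKM, with 0 of 5 tested called. Testing took a mean of 0.5 FPKM over all 6 libraries, so some markers were tested only because of their D7 values. Over libraries 1 and 2, 9 trophoblast, 7 fibroblast and 5 endoderm markers reached that mean. Among the markers called, *Cdx2*, *Gata3*, *Col1a2*, *Col3a1*, *Col5a2*, *Postn*, *Twist2* and *Apoa1* did not, so their rise is tied to their being tested. The part of these cell types in the D7 differences of imprinted genes was not tested.

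Of a further list of 43 imprinted genes, 33 had a row, 23 were tested, and 1 rose and 2 fell in the D7 pair. The counts of this list and the next are to be read against 6.77% of all genes called higher and 3.06% lower. *Sfmbt2*, a paternally expressed Polycomb gene of the placenta, rose by a log2 fold change of 0.58, and *Mapt* and *Cobl* fell by 1.16 and 1.08 on the log2 scale. Among 25 tested genes of imprint maintenance and DNA methylation, *Dnmt3a*, a de novo methyltransferase, rose by a log2 fold change of 0.69, while *Tet1* and *Tet2*, which oxidise methylcytosine, and *Dnmt3l*, a cofactor of the de novo enzymes, fell by 1.40, 1.30 and 1.20. The genes that keep imprints during replication did not pass the test. *Dnmt1* was at 76.98 to 82.23 FPKM in the first 4 libraries and at 65.19 and 60.17 FPKM in Con-D7 and OE-D7. *Uhrf1* was at 103.92 to 136.61 FPKM in the first 4 libraries and at 87.98 and 70.83 FPKM in Con-D7 and OE-D7. *Zfp57* was at 171.16 to 244.83 FPKM in the first 4 libraries and at 118.63 and 120.95 FPKM in Con-D7 and OE-D7, and *Trim28* at 398.01 to 759.08 FPKM and at 299.57 and 245.51 FPKM. For all of these 4 genes both D7 values were below the others, which held for 23.6% of all genes. Their adjusted p lay between 0.0513 for *Zfp57* and 0.119 for *Trim28* (edgeR). In the same list, both D7 values were above the others for *Dnmt3a*, *Smchd1*, *Arid4b* and *Ctcfl*.

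*Dppa3* overexpression itself was compared with Con in libraries 1 and 2. Without pairing, 0 of 36 members passed in edgeR and 0 had an unadjusted p under 0.05, while 0.00% of all 13494 genes were called and 62 had an unadjusted p under 0.05. DESeq2 called 0 members too, against 0.0148% of genes called higher and 0.00% lower. Libraries that share a number deviated from their group means together, so the fit was repeated with the pair as a block. In the blocked fit *Mest* alone rose, 1 of 36 members, against 0.763% of all genes called higher and 0.126% lower (6 members at an unadjusted p under 0.05).

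*Mest* (chr6:30733506-30748466), the paternally expressed gene also known as *Peg1*, was at 90.74 and 59.41 FPKM in Con-1 and Con-2, 120.59 and 90.28 FPKM in OE-1 and OE-2, and 96.80 and 191.84 FPKM in Con-D7 and OE-D7. Con and OE of libraries 1 and 2 overlapped, since OE-2 was just below Con-1, yet OE was the higher in each pair, by 1.33-fold, 1.52-fold and 1.98-fold. In libraries 1 and 2 the blocked log2 fold change was 0.45 (SE 0.08, adjusted p = 0.00553, edgeR), and DESeq2 (0.237% of genes called higher and 0.0148% lower) and limma-voom with the block called it as well. *Mest* overlaps *Copg2* in the annotation, its counts were fractional, meaning that reads were shared out by estimation, and whether counting used strand is not stated.

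*Dlk1*, whose values are given above, was also higher in OE in each pair, 1.65-fold, 3.75-fold and 3.17-fold. It missed the threshold in libraries 1 and 2 with the block, at a log2 fold change of 1.25 (SE 0.30, adjusted p = 0.0671, edgeR), where its level was 0.76 to 2.85 FPKM. Over all 6 libraries, in a fit with a D7 term, 0 members passed in edgeR without the block (2 at an unadjusted p under 0.05, 0.00% of genes called) and 0 with it (4 at an unadjusted p under 0.05, 0.00724% of genes called). *Dlk1* had the smallest p in both, with a blocked log2 fold change of 1.48 (SE 0.19, adjusted p = 0.0908). It passed with DESeq2 without the block, where 0.0434% of genes were called higher and 0.00724% lower, and with limma-voom with the block. With DESeq2 and the block *Dlk1* and *Mest* both passed, against 0.420% of genes higher and 0.0797% lower.

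Of the 9 members listed above for a germline methylated start, *Mest* was the only gene called in these OE comparisons with edgeR. It was called with the block only, and in libraries 1 and 2 it was also the only call among all 36 members. *Snrpn*, whose hexamer is shown above, was the sole member lower in OE in each pair (9.86% of all genes were so), by little, at 0.89-fold, 0.92-fold and 0.89-fold. *Peg3* had log2 ratios of OE over Con of -0.16 and -0.22 in pairs 1 and 2 and of 0.65 in the D7 pair. *Grb10*, an adaptor that dampens insulin and growth factor signalling, was 1.29-fold, 1.11-fold and 1.12-fold higher, at 1.46 and 3.45 FPKM in Con-1 and Con-2, 1.88 and 3.84 FPKM in OE-1 and OE-2, and 2.37 and 2.65 FPKM in Con-D7 and OE-D7. *Nap1l5*, *Nnat*, *Plagl1* and *Zrsr1* lay between 0.89-fold and 1.44-fold of Con in pairs 1 and 2. In the further list of 23 tested imprinted genes 0 were called in libraries 1 and 2, with and without the block, and in the maintenance list *Dppa3* alone was called, with the block, at a log2 fold change of 5.76.

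Within each pair, taken as 1 library against 1 and without a test, OE was above Con for 19 of 36 members in pair 1, 22 in pair 2 and 31 in the D7 pair, which is 52.8%, 61.1% and 86.1%, against 60.5%, 56.1% and 54.5% of all 13809 genes. The median log2 ratio of FPKM plus 0.5 was 0.03, 0.09 and 0.29 in pairs 1 and 2 and the D7 pair, against 0.05, 0.03 and 0.03 over all genes. Members at least 1.5-fold higher in OE numbered 2 (*Ascl2* and *Peg12*), 3 (*Dlk1*, *Mest* and *Zdbf2*) and 10, where 3.03%, 2.77% and 5.01% of all genes were so, and 0 members were 1.5-fold lower in any pair (0.536%, 0.804% and 1.73% of all genes). The 10 in the D7 pair were *Dlk1*, *Cdkn1c*, *Igf2*, *Phlda2*, *Mest*, *Peg10*, *Gnas*, *Peg3*, *Plagl1* and *Dio3*. They comprise 7 paternally and 2 maternally expressed genes and *Gnas*. OE was the higher library in all 3 pairs for 13 members, 10 of them paternally and 3 maternally expressed, where 21.6% of all genes were so.

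**Figure D3:**
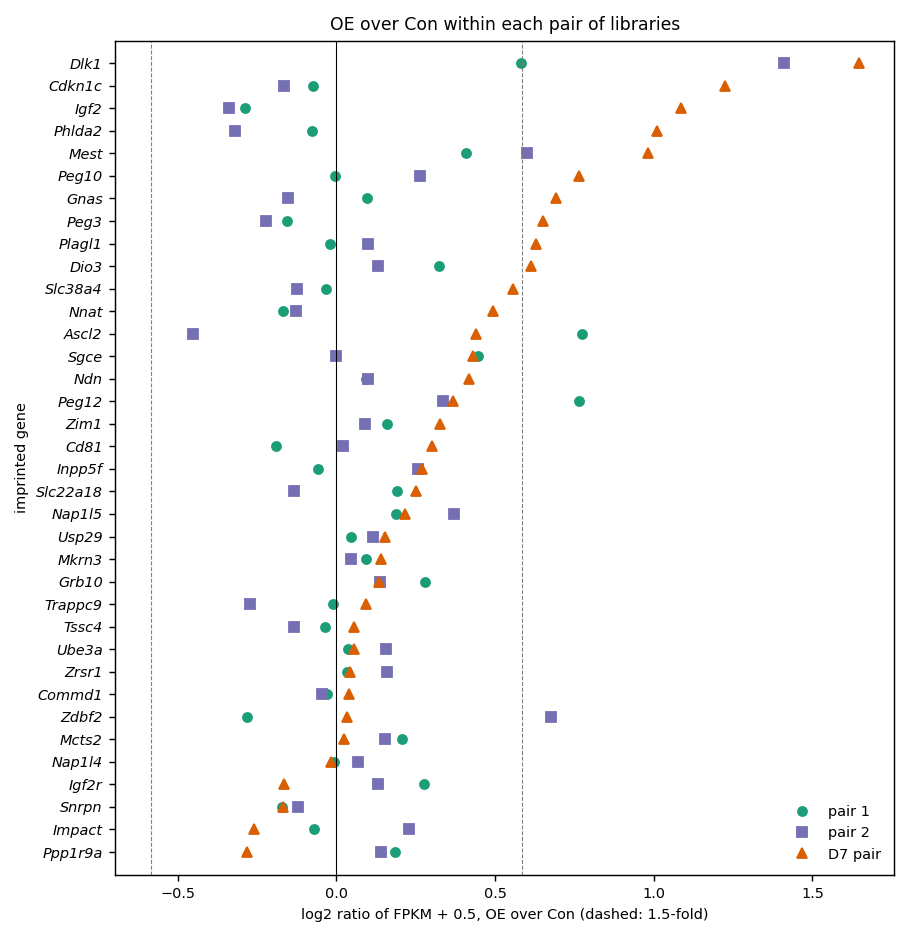
Log2 ratio of FPKM plus 0.5 in OE over Con for the 36 tested imprinted genes, with a circle for pair 1, a square for pair 2 and a triangle for the D7 pair, and dashed lines at 1.5-fold. In the D7 pair 31 of 36 triangles lie to the right of 0 and 10 past the right dashed line, while *Igf2*, *Cdkn1c*, *Phlda2* and *Peg3* have circles and squares to the left of 0.

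Whether OE went with a different change in the D7 pair than in libraries 1 and 2 was tested directly. Without the block 0 of 36 members passed in edgeR (3 at an unadjusted p under 0.05, 0.00% of genes called) and 0 in DESeq2 (0.00724% of genes higher and 0.00724% lower). With the pair as a block, 7 members had a larger OE effect in the D7 pair and 0 a smaller effect, against 0.934% and 0.507% of all genes. The fit leaves 1 residual degree of freedom and has 1 D7 library per genotype, so its spread comes from pairs 1 and 2.

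*Igf2* had the smallest p, with a difference in log2 fold change of 1.53 (SE 0.20, adjusted p = 0.000105, edgeR with the block). Its log2 ratios of OE over Con were -0.29 and -0.34 in pairs 1 and 2, where it was near 1 FPKM, and 1.09 in the D7 pair. *Cdkn1c* differed by 1.41 (SE 0.21, adjusted p = 0.000456), and OE-D7 was 2.38-fold above Con-D7. *Phlda2*, a placental growth restrainer of the same domain, was at 52.86 and 61.84 FPKM in Con-1 and Con-2, 50.06 and 49.48 FPKM in OE-1 and OE-2, and 33.58 and 68.10 FPKM in Con-D7 and OE-D7. Its lowest and highest values were thus those of the D7 pair, and its difference was 1.22 (SE 0.20, adjusted p = 0.00146).

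The other 4 were *Peg3* (0.85), *Gnas* (0.75), *Peg10* (0.66) and *Slc38a4* (0.65), with adjusted p up to 0.00495. *Gnas* was at 78.00 and 110.37 FPKM in Con-1 and Con-2, 83.43 and 99.22 FPKM in OE-1 and OE-2, and 129.52 and 209.42 FPKM in Con-D7 and OE-D7. It was higher in both D7 libraries than in the others and highest in OE-D7. The marker lists moved in this test too. With the block, 5 of 11 tested trophoblast and placenta markers and 4 of 12 tested fibroblast or feeder markers had a larger OE effect in the D7 pair, among them *Krt18* by 1.00 and *Col1a1* by 2.10 on the log2 scale. *Col1a2*, also called, reached the mean for testing only through its D7 values. The trophoblast sum was 1285.65 FPKM in OE-D7 against 723.31 FPKM in Con-D7, and the fibroblast sum 616.5 FPKM against 364.23 FPKM. Of the endoderm, neural, mesoderm and ESC markers 0 were called there. Their part in the result was not tested.

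Pair 2 differed from pair 1 at many imprinted genes, in Con and OE alike. In a fit with a genotype term, 12 of 36 members were higher and 9 lower in pair 2 (edgeR), a share close to that of all genes tested, of which 26.0% were higher and 25.4% lower. This fit sets 1 pair against 1, takes Con and OE of a pair as separate replicates, and leaves 1 residual degree of freedom. Its p-values, here and below, are too small if libraries of a pair are not independent. DESeq2 called 7 higher and 4 lower, against 11.7% and 15.0%, and of the genes called in edgeR it did not call *Zdbf2*, *Usp29*, *Gnas*, *Slc38a4*, *Commd1*, *Ndn*, *Mcts2*, *Peg10*, *Tssc4* and *Nap1l4*. The maternally expressed genes had 7 higher and 2 lower of 14 and a median log2 fold change of 0.39, and the paternally expressed genes 4 higher and 7 lower of 21 and a median of -0.14, against 0.02 over all genes.

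Maternally expressed genes accounted for 7 of the 12 calls higher in pair 2. *Grb10*, given above, rose by a log2 fold change of 1.04 (SE 0.16, adjusted p = 4.12e-05, edgeR), *Cdkn1c* by 0.93 (SE 0.13) and *Igf2r* by 0.54 (SE 0.08). *Phlda2* did not pass the test, at a log2 fold change of 0.00 (adjusted p = 0.978, edgeR). *Slc22a18*, a transporter gene of the Kcnq1ot1 domain, was at 1.69 and 6.16 FPKM in Con-1 and Con-2, 2.00 and 5.57 FPKM in OE-1 and OE-2, and 1.30 and 1.64 FPKM in Con-D7 and OE-D7. Pair 2 stood apart from the other 4 libraries at this gene, with a log2 fold change over pair 1 of 1.55 (SE 0.22, adjusted p = 2.69e-05, edgeR). *Ascl2*, a transcription factor of the trophoblast and itself on that marker list, was at 2.65 and 9.60 FPKM in Con-1 and Con-2, 4.89 and 6.89 FPKM in OE-1 and OE-2, and 3.70 and 5.20 FPKM in Con-D7 and OE-D7. The 2 pairs did not overlap, and the log2 fold change was 0.87 (SE 0.21). The smaller changes of this domain were falls of *Tssc4* and *Nap1l4* by 0.45 and 0.19. *Tssc4* was at 17.23 and 15.73 FPKM in Con-1 and Con-2, 16.79 and 14.28 FPKM in OE-1 and OE-2, and 12.36 and 12.85 FPKM in Con-D7 and OE-D7, so the D7 pair was the lowest. *Nap1l4*, a histone chaperone gene, was at 77.69 and 70.78 FPKM in Con-1 and Con-2, 77.28 and 74.16 FPKM in OE-1 and OE-2, and 69.29 and 68.43 FPKM in Con-D7 and OE-D7.

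All 3 tested members of the Peg10 domain were higher in pair 2 whatever their parental copy. *Sgce* rose by a log2 fold change of 1.28 (SE 0.17, adjusted p = 1.15e-05, edgeR) and *Peg10* by 0.26 (SE 0.07). *Ppp1r9a*, a maternally expressed regulator of the actin cytoskeleton, was at 4.57 and 8.36 FPKM in Con-1 and Con-2, 5.26 and 9.26 FPKM in OE-1 and OE-2, and 4.90 and 3.94 FPKM in Con-D7 and OE-D7, and its log2 fold change was 0.80 (SE 0.09). *Usp29*, *Gnas* and *Slc38a4*, given above, were higher in pair 2 by 0.77, 0.25 and 0.18. *Commd1*, a maternally expressed gene of copper handling, was at 34.72 and 47.47 FPKM in Con-1 and Con-2, 34.02 and 46.02 FPKM in OE-1 and OE-2, and 40.02 and 41.16 FPKM in Con-D7 and OE-D7, a log2 fold change of 0.34 (SE 0.12). *Zrsr1*, the paternally expressed splicing factor gene inside an intron of *Commd1*, went the other way, at 6.95 and 4.52 FPKM in Con-1 and Con-2, 7.12 and 5.10 FPKM in OE-1 and OE-2, and 5.47 and 5.65 FPKM in Con-D7 and OE-D7, and fell by 0.65 (SE 0.13). Counts of these overlapping genes are uncertain where reads could be split between them.

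Paternally expressed genes lower in pair 2 were led by *Zdbf2*, which is known for its effect on growth after birth. It was at 14.58 and 5.02 FPKM in Con-1 and Con-2, 11.90 and 8.31 FPKM in OE-1 and OE-2, and 8.81 and 9.02 FPKM in Con-D7 and OE-D7, and fell by 1.11 on the log2 scale (SE 0.15, adjusted p = 1.41e-05, edgeR). *Mest* fell by 0.62 (SE 0.08) and *Snrpn* by 0.38 (SE 0.07). *Ndn*, a growth suppressor of neurons, was at 6.79 and 4.99 FPKM in Con-1 and Con-2, 7.27 and 5.38 FPKM in OE-1 and OE-2, and 8.03 and 10.90 FPKM in Con-D7 and OE-D7, and fell by 0.53 (SE 0.17). *Mcts2*, a retrogene in an intron of *H13*, was at 25.38 and 21.01 FPKM in Con-1 and Con-2, 29.37 and 23.39 FPKM in OE-1 and OE-2, and fell by 0.40 (SE 0.13). *Impact*, a regulator of translation, was at 64.66 and 49.65 FPKM in Con-1 and Con-2, 61.54 and 58.30 FPKM in OE-1 and OE-2, and 76.74 and 64.02 FPKM in Con-D7 and OE-D7, and fell by 0.32 (SE 0.08).

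**Figure D4:**
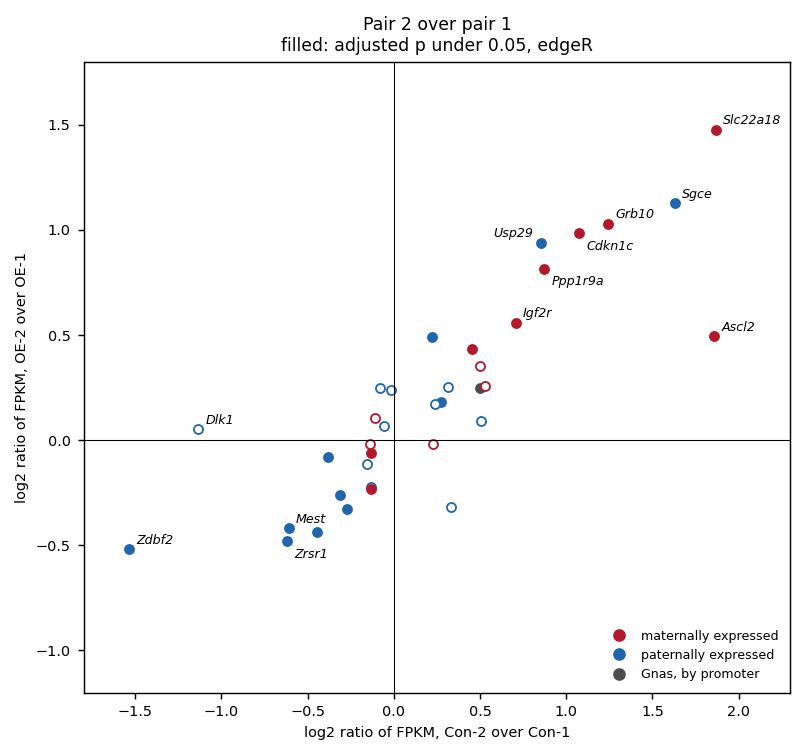
Log2 ratio of FPKM in pair 2 over pair 1 for the 36 tested imprinted genes, between the Con libraries on the horizontal axis and between the OE libraries on the vertical axis, coloured by expressed copy and filled where the adjusted p was under 0.05 (edgeR). *Slc22a18*, *Sgce*, *Grb10* and *Cdkn1c* lie at the upper right and *Zdbf2*, *Zrsr1* and *Mest* at the lower left, while *Ascl2* and *Dlk1* differ more between the Con than between the OE libraries.

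In the imprint maintenance list 2 genes were higher and 14 lower in pair 2 of 25 tested, where 26.0% of all genes were higher and 25.4% lower. *Trim28* fell by 0.91 on the log2 scale (SE 0.07, adjusted p = 7.95e-08, edgeR), *Uhrf1* by 0.43, *Zfp57* by 0.36 and *Dnmt1* by 0.18. Of the further imprinted genes 9 were higher and 3 lower of 23. The marker lists had calls between these pairs as well, to be read against the same shares of all genes. Of the trophoblast and placenta markers 4 of 9 tested were higher and 0 lower, with sums of 43.74 and 53.67 FPKM in Con-1 and OE-1 and 77.36 and 67.96 FPKM in Con-2 and OE-2. Of the fibroblast or feeder markers 2 of 7 were higher and 1 lower, of the endoderm markers 2 of 5 were higher, and of the ESC markers 1 of 10 was higher and 5 were lower. Their part in the differences between the pairs was not tested.

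The tested members not yet given in full were *Zim1*, *Mkrn3*, *Peg12*, *Ube3a*, *Cd81*, *Plagl1*, *Nnat*, *Nap1l5*, *Inpp5f* and *Trappc9*. *Ube3a*, the ubiquitin ligase gene of Angelman syndrome that is imprinted in neurons, was nearly level, between 16.62 and 19.41 FPKM in the 6 libraries. *Plagl1*, a zinc finger gene linked to transient neonatal diabetes, lay between 5.89 and 6.34 FPKM in the first 4 libraries and at 8.31 and 13.11 FPKM in Con-D7 and OE-D7, and missed the threshold in the D7 comparison (adjusted p = 0.0512, edgeR). *Nnat*, a small membrane protein gene inside *Blcap*, lay between 19.75 and 24.08 FPKM and at 28.88 and 40.84 FPKM. *Peg12* and *Nap1l5* were near 1 FPKM and lowest in the D7 pair. Summed over all 42 members, imprinted transcripts came to 1017.54 to 1076.99 FPKM in the first 4 libraries and to 1519.33 and 2238.89 FPKM in Con-D7 and OE-D7. The paternally expressed genes made up 542.35 to 602.39 FPKM and then 1034.68 and 1588.93 FPKM of these sums, and the maternally expressed genes 338.13 to 391.74 FPKM and then 355.13 and 440.54 FPKM. *Peg10* contributed 366.67 and 623.30 FPKM to the D7 sums, more than any other member.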

How the data were processed

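The authors extracted total RNA with TRIzol, sequenced libraries on BGISEQ-500, mapped reads to mm10 with Bowtie2 and assigned them to genes with RSEM. In the submitters' processing notes HISAT and GRCm38.p6 are named instead, and versions are not given in the sources used here. The deposited table held estimated counts per gene, not normalized, and FPKM values that the authors normalized for length and depth, with 2 decimals. The count columns of Con-D7 and OE-D7 are headed average read count, and those of the other libraries read count. What the word average refers to is not stated in the labels, and the difference cannot be told apart from the D7 label. Gene numbers matched RefSeq for 19340 of 19489 genes, 26 symbols turned into dates were restored, and 0 columns were left unused.

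Estimated counts were rounded and tested in R 4.3.3 with edgeR 4.0.16 (TMM factors 0.944 to 1.05, quasi-likelihood F test, Benjamini-Hochberg adjusted p under 0.05) over all genes whose mean FPKM reached 0.5, 13494 for libraries 1 and 2 and 13809 for all 6. DESeq2 1.42.0 and limma 3.58.1 were alternatives. Log2 ratios within pairs used FPKM plus 0.5. Members, gene lists and tests were chosen with earlier results of these data known. Every tested member called in a fit, and *H19*, *Igf2*, *Meg3*, *Dlk1*, *Peg3*, *Mest*, *Snrpn*, *Peg10*, *Cdkn1c* and *Igf2r* in any case, was to be given by library.

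Deviations of log2 counts from the group means, over 12565 genes, correlated at 0.881, 0.756 and 0.889 between libraries that share a number and at -0.03 or below between others, although deviations from a mean of 3 are held to sum to 0. By this check alone the numbers were taken to pair the libraries, and no source says that they were handled together. The common biological coefficient of variation over libraries 1 and 2 was 0.283 without the pair as a block and 0.0804 with it. On simulated data, 2-fold changes were recovered in 17.9% of genes for OE against Con in libraries 1 and 2 and in 88.1% with the block. They were recovered in 44.8% for the D7 comparison and in 89.6% between pairs 1 and 2. Genes left unchanged gave 0, 11, 5 and 13 false calls in that order. For the OE effect, 4-fold differences were recovered in 21.2% without the block. Simulated libraries were drawn independently, so fits without the block, the D7 comparison among them, did not carry the pairing seen here. Depth was even and limits precision mainly for members under 1 FPKM.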

Additional observations from a re-analysis of the deposited data

Results flagged for a closer look

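The effect of *Dppa3* overexpression differed between the D7 pair and libraries 1 and 2 for 7 imprinted genes, in the edgeR fit with the replicate pair as a block. The differences in log2 fold change, D7 pair minus libraries 1 and 2, were 1.53 for *Igf2*, 1.41 for *Cdkn1c*, 1.22 for *Phlda2*, 0.85 for *Peg3*, 0.75 for *Gnas*, 0.66 for *Peg10* and 0.65 for *Slc38a4*. Without the block 0 passed (3 members at an unadjusted p under 0.05), and DESeq2 called 0. Each genotype has 1 D7 library, so the D7 pair has no replicate of its own. OE was above Con in the D7 pair for all 7, and below Con in both other pairs for *Igf2*, *Cdkn1c*, *Phlda2*, *Peg3* and *Slc38a4*.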

How the results depend on the processing

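Counts of imprinted genes called depended on the pairing and on the D7 libraries. No member called with or without the block changed sign in another setting of its comparison. With the block *Zdbf2* and *Ascl2*, called neither with nor without it in the OE comparisons, changed sign at log2 fold changes of at most 0.15 in size. In libraries 1 and 2, OE against Con went from 0 to 1 (*Mest*) with the replicate block. It did so in edgeR (0.889% of all genes called), in DESeq2 (0.252%), in limma-voom (0.897%), and in edgeR with library sizes over all genes (0.437%). Over all 6 libraries it went from 0 to 1 in DESeq2 (*Dlk1*), to 2 in DESeq2 with the replicate block (*Dlk1* and *Mest*), to 1 in limma-voom with the replicate block (*Dlk1*) and to 1 with the replicate block without pair 1 (*Dlk1*). For the difference in the OE effect it went from 0 to 7 with the replicate block and to 8 with library sizes over all genes beside it, which added *Mest*. The pairing changed no other call.

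For the D7 pair, 7 of 36 became 12 of 36 in DESeq2, 22 of 37 without pair 1 and 21 of 37 without pair 2, while the share of all genes called went from 9.83% to 18.1%, 30.7% and 55.3%. The settings without a pair and with library sizes over all genes were chosen after seeing the data. Leaving out 1 library of pairs 1 and 2 gave 4 calls without OE-1 or without OE-2, 9 without Con-1 and 12 without Con-2. The share of all genes called moved too, at 3.09% without OE-1, 2.65% without OE-2, 8.66% without Con-1 and 18.3% without Con-2. The fits without a D7 library, which leave 1 of them, are given above. The cause was not tested. Between pairs 1 and 2, 21 became 11 in DESeq2, while the share of all genes called went from 51.4% to 26.7%. Leaving out a library there leaves no spread to test with. Within pair 1, members 1.5-fold higher in OE went from 2 to 1 with a pseudocount of 1. Of the other settings, 50 counts stayed within 1.5 times of the reported count. Depth limits the members under 1 FPKM, such as *Dio3*, *Usp29* and *Zim1* in the first 4 libraries.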
